A study of Mus musculus with 24 samples.

Results

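Respiratory complex I, the NADH:ubiquinone oxidoreductase, was followed here through 53 genes, which are all genes with a mouse symbol starting with Nduf or mt-Nd and a mean of at least 1 CPM (counts scaled to a common total per library) over the 23 distinct libraries. They were found among 58 gene IDs with such a symbol and 56941 IDs in all, and 47 of them lie in the nuclear and 6 in the mitochondrial genome. Complex I takes electrons from NADH, passes them through a flavin and iron-sulfur clusters of its matrix arm to ubiquinone, and pumps protons through its membrane arm. Its core subunits are split between the genomes, so that nuclear and mitochondrial transcripts have to be made side by side, and assembly factors put the pieces together without staying in the enzyme. Neurons draw most of their ATP from this respiratory chain, and glucose reaches it as NADH.

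The data are RNA-seq read counts of polyadenylated RNA from an established mouse hypothalamic cell line, described by the submitters as neuronal and adult, with 3 deposited files in each of 8 groups. The high-glucose groups are HG1, HG2 and HG3, treated with mogroside V at dose labels 1, 2 and 3, and the control HGC. The normal-glucose groups are NG1, NG2 and NG3 with the same dose labels, and the control NGC. Mogroside V is the sweet triterpene glycoside of monk fruit, and the labels do not tie the dose numbers to the concentrations used. The question was how glucose and the compound act on the transcriptome, and nothing in the labels tells whether the replicates are separate cultures. The p-values therefore weigh differences against the spread among libraries, which may be technical. A single cell line with no other allele or agent named underlies all 8 groups.

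Replicate 3 of HG2 and replicate 2 of HG3 were deposited with identical counts and both were left out, which leaves 22 libraries, 10 in high and 12 in normal glucose, with n = 2 in HG2 and HG3. Depth ran from 3396249 to 7773074 gene counts per library. NG3 replicate 3 stood apart, with the lowest share of counts on mitochondrial genes (5.43%) and the highest sum of the 47 nuclear genes (6646 CPM) of the 22 libraries. It also had the lowest share of reads on no gene (14.4%) and the highest share aligned to several places (18.9%). Of 7 neuronal markers, 3 had a mean of at least 1 CPM (Map2, Tubb3 and Stmn2, at 47.5, 58.8 and 17.8 CPM), whereas Rbfox3, Snap25 and Syt1 lay at 0.121, 0.0358 and 0.163 CPM and Elavl4 had no count. Of 5 fibroblast and pericyte markers, Col1a1, Col1a2 and Pdgfrb lay at 1363, 3301 and 271 CPM, Dcn at 7.66 and Lum at 0.0560 CPM. Of 6 astrocyte and tanycyte markers, Vim, also a mesenchymal gene, lay at 3266 CPM and Slc1a3 at 2.92 CPM. Gfap, Aldh1l1 and Rax lay at 0.0594, 0.0824 and 0.224 CPM, and Aqp4 had no count. Several defining markers of mature neurons were thus at or near 0, and each of these lists held both high and low members.

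The member closest to the limit was Ndufb4c, at 1.5002 CPM. The first gene below it was Ndufs6b at 0.228 CPM, followed by Ndufa11b, Ndufa4l2 and Ndufab1-ps. The remaining candidate was mt-Nd4l, the smallest mitochondrial core subunit, which had 0 counts in all files. By role the 53 genes are 7 nuclear and 6 mitochondrial core subunits, 10 accessory subunits of the matrix arm, 20 of the membrane arm, 8 assembly factors, Ndufa4, a complex IV subunit with a complex I name, and Ndufb4c. All 53 passed the low-count filter of the test.

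The sequences that bear on these transcripts are shown first. The reading frames of mt-Nd4l and mt-Nd4 overlap, and the last 30 bases of mt-Nd4l and the first 30 of mt-Nd4 (from the GENCODE transcripts of GRCm38) are printed with the 7 shared bases in capitals, because one of these neighbours had no counts and the other was the most abundant member.

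mt-Nd4l: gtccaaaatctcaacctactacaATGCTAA

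mt-Nd4: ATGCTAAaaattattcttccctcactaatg

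The 250 bases before the annotated start are printed for Ndufa10 (chr1:92473759-92474008, minus strand) and Ndufaf1 (chr2:119662835-119663084, minus strand), the members that passed the test between the glucose media. They come from RefSeq, build GRCm38.p6. Capitals mark a match to CCGGAAG, the core of the sites bound by ETS factors such as GABP, or to GCGC, any base and TGCGC, the site of NRF1. Both factors are known regulators of nuclear respiratory genes.

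Ndufa10: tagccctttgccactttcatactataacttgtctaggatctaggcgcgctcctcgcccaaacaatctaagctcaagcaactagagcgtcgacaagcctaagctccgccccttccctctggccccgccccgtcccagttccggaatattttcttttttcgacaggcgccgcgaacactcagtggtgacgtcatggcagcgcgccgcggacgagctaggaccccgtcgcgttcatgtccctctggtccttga

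Ndufaf1: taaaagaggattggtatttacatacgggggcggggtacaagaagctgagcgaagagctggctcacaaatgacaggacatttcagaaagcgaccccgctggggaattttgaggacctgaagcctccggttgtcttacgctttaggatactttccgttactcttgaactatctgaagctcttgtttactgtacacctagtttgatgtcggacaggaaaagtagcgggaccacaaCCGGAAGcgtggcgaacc

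Ndufa10 held neither motif on either strand, and Ndufaf1 held CCGGAAG once, starting 18 bases before the start. Promoters were found for 41 of the 47 nuclear members. The NRF1 motif, on either strand, stood in 7 of the 41 (17.1%), namely Ndufa5, Ndufa8, Ndufa11, Ndufaf4, Ndufb4, Ndufs5 and Ndufs6, against 4.23% of 27025 genes. The ETS motif, CCGGAAG or on the other strand CTTCCGG, stood in 5 of the 41 (12.2%), namely Ndufaf1, Ndufaf8, Ndufb6, Ndufb7 and Ndufs3, against 7.83% of all genes. No member held both motifs. The 27025 genes were not matched to the members by level or base content, so nothing particular to complex I is read from these shares.

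Per kilobase of transcript, the mitochondrial core genes led. Over the 22 libraries mt-Nd4, mt-Nd1 and mt-Nd2 averaged 8802, 7314 and 7277 CPM per kilobase. They are followed by mt-Nd6, the only complex I gene on the other strand of the mitochondrial genome, at 1847, by mt-Nd5 at 520.0 and by mt-Nd3 at 82.1 CPM per kilobase. Of the nuclear members Ndufa2, a thioredoxin-like accessory subunit of the matrix arm, was highest at 1035 CPM per kilobase, above mt-Nd5. The next nuclear genes were Ndufa7, Ndufa3 and Ndufa1 at 426, 423 and 410.4 CPM per kilobase.

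The nuclear core subunits carry the flavin and the iron-sulfur clusters. Their median was 75.5 CPM per kilobase, with a range of 21.2 for Ndufs3 to 96.1 for Ndufv1, below the medians of the accessory subunits of the matrix arm (239) and of the membrane arm (163). The assembly factors had a median of 10.03 CPM per kilobase, although Ndufaf8 reached 144. The lowest member per length was Ndufs5, a membrane arm subunit, at 3.76, next to Ndufb4c at 3.95 CPM per kilobase. Ndufs5, Ndufa1, Ndufa2, Ndufa3 and Ndufa7 were named after their values were seen. Of the 75-base windows of Ndufs5, 24.1% also occur in the annotated copy BC002163, and all windows of Ndufb4c occur in another transcript, so reads of these genes may be split or dropped, which was not tested.

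**Figure D1:**
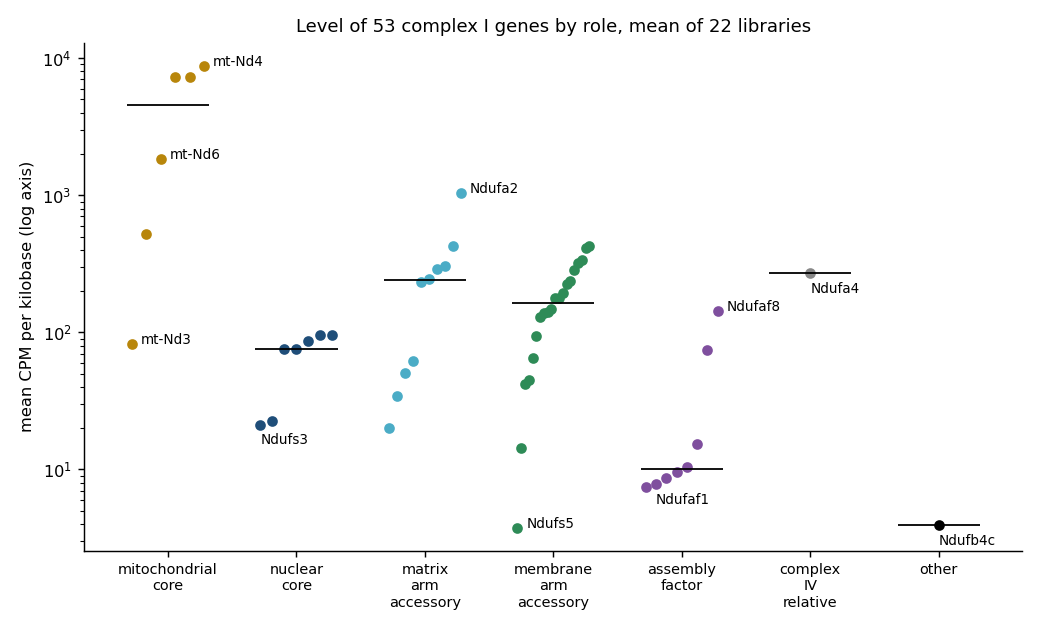
Mean CPM per kilobase over 22 libraries (log axis) of each of the 53 genes, by role. Points are genes and horizontal lines are medians. Mitochondrial core genes reach 8802 CPM per kilobase in mt-Nd4, and the assembly factors have a median of 10.03.

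Among the 13 mitochondrial messengers, counts stopped in a block from mt-Co2 to mt-Nd4l, in the order of the genome. There mt-Co2, mt-Co3, mt-Atp8 and mt-Nd4l had no count in the 23 distinct libraries, mt-Atp6 had 2 counts, and mt-Nd3 ran from 3.08 to 70.1 CPM. The neighbours on both sides, mt-Co1 and mt-Nd4, averaged 926 and 12129 CPM. The same stretch shares sequence with annotated copies. Of the 75-base windows of the transcript, 98.7% in mt-Nd4l, 97.8% in mt-Nd3, 61.5% in mt-Nd4, 5.71% in mt-Nd2, 1.66% in mt-Nd5 and 0% in mt-Nd1 and mt-Nd6 also occur in another annotated transcript. The copies of mt-Nd4l, mt-Nd3 and mt-Nd4 held 10, 72 and 33 counts in the 22 libraries. Of the other copies, Gm13340, a copy of mt-Co1, held 21866 counts (mean 244 CPM) and Gm13341, a copy of mt-Co2, held 269.

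Reads aligned to several places, which were not counted for any gene, made up 16.5 to 18.9% of the reads of a library. Their part in the low values was not tested. mt-Atp8 stood at 0 counts with 0% of its windows shared, and mt-Nd4 was the most abundant member with 61.5% shared.

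**Figure D2:**
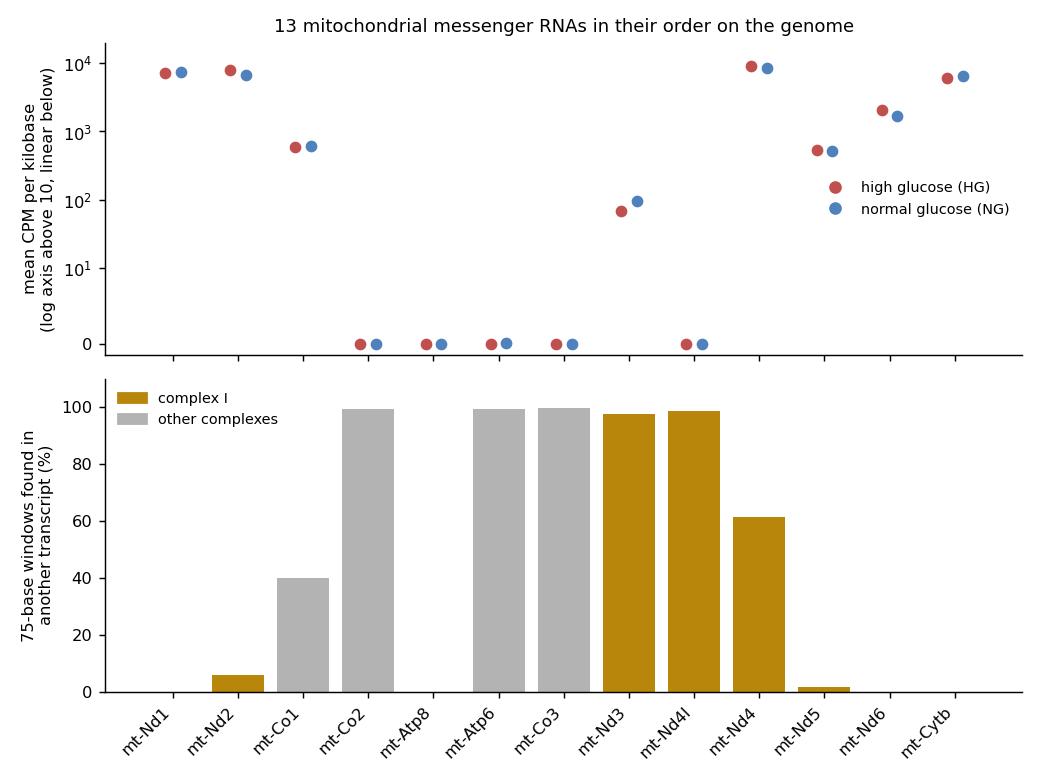
Upper panel, mean CPM per kilobase of the 13 mitochondrial messengers in high and normal glucose (log axis above 10, linear below), in genome order. Lower panel, share of the 75-base windows of each transcript that occur in another annotated transcript, 98.7% for mt-Nd4l and 0% for mt-Nd1.

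Between the libraries, the mitochondrial members varied more than the nuclear ones. The standard deviation of log2 CPM within groups had a median of 0.28 over the 5 mitochondrial members and 0.16 over the 25 nuclear members with at least 100 CPM, against 0.15 over 1925 genes of that level. The most variable member was mt-Nd3 at 0.86, and mt-Nd2 reached 0.32. The opposite end was also mitochondrial, since mt-Nd1, a core subunit at the ubiquinone site, differed by 1.33-fold between its lowest and highest library, less than any other member. By contrast mt-Nd3 spanned 22.8-fold, Ndufb4c 11.3-fold and Ndufs5 7.26-fold, all at low counts.

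The nuclear and the mitochondrial sets were compared by their summed levels. In high glucose the 6 mitochondrial genes summed to 26637 to 34139 CPM (median 28808), and in normal glucose to 23242 to 32727 CPM (median 26343). The 47 nuclear genes summed to 4951 to 5949 CPM (median 5314) in high and to 5119 to 6646 CPM (median 5456) in normal glucose. The log2 ratio of the mitochondrial over the nuclear sum, which does not depend on library size, was 2.47 ± 0.13 in high glucose (SD, n = 10) and 2.31 ± 0.19 in normal glucose (SD, n = 12). The media overlapped, with 2.30 to 2.69 in high and 1.98 to 2.59 in normal glucose.

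By dose label, the ratio was 2.37 ± 0.08 in HGC and 2.44 ± 0.20 in NGC, and 2.50 ± 0.16 in HG1 and 2.33 ± 0.23 in NG1 (SD, n = 3 each). At dose label 2 the values were 2.69 and 2.37 in HG2, against 2.31, 2.33 and 2.30 in NG2. At dose label 3 they were 2.43 and 2.56 in HG3, against 2.31, 2.11 and 1.98 in NG3. High glucose thus lay above normal glucose in every library at dose labels 2 and 3, with overlap in the controls and at dose label 1. No test was made of these sums, since they are a score over chosen members.

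The difference of the log2 ratio, averaged over the 4 levels, was 0.17 between high and normal glucose, beside a pooled within-group SD of 0.16. On the log2 scale, the mitochondrial sum was 0.13 higher and the difference of the nuclear sum was -0.04. The difference of the ratio was -0.07 for HGC against NGC and 0.25 for the treated libraries. For treated against control libraries it was -0.03 over both media, 0.13 in high and -0.18 in normal glucose, so the sign differed between the media. With 1 library left out, these ran from -0.08 to 0.0091, from 0.08 to 0.19 and from -0.30 to -0.12. The value over both media was above 0 without NGC replicate 3 or HG2 replicate 2. For HGC against NGC the difference ran from -0.18 without NGC replicate 2 to -0.00088 without NGC replicate 3. Without mt-Nd3 and mt-Nd4, the difference was 0.18 over the 4 levels and 0.05 in place of -0.07 between the controls.

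**Figure D3:**
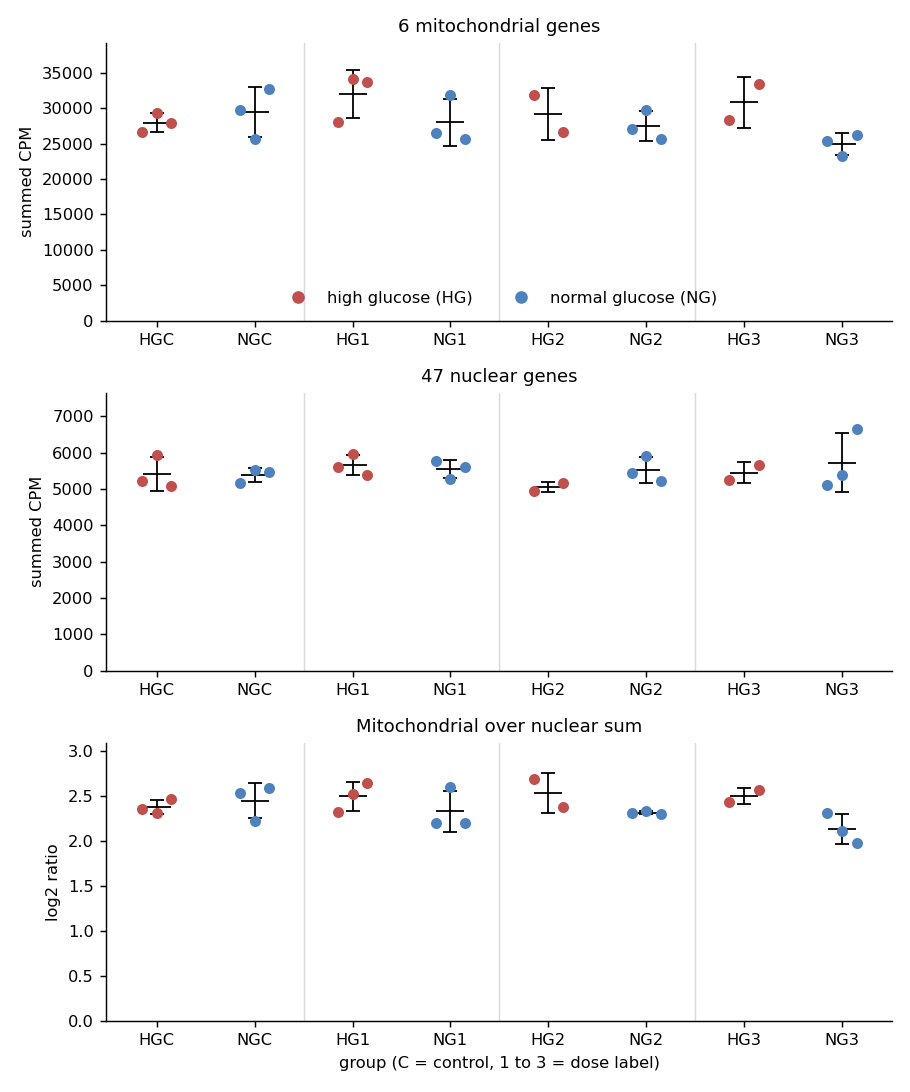
Summed CPM of the 6 mitochondrial and of the 47 nuclear genes and the log2 ratio of the sums, for each library (points) with the group mean and SD (bars), high glucose left of normal glucose at each level. HG3 and NG3 do not overlap in the ratio, at 2.43 and 2.56 against 1.98 to 2.31.

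Within the mitochondrial genome, the complex I messengers were also set against the other counted ones, mainly mt-Cytb of complex III and mt-Co1 of complex IV. The log2 ratio of their sums was 1.92 ± 0.15 in high glucose (SD, n = 10) and 1.71 ± 0.12 in normal glucose (SD, n = 12). It was 1.87, 1.996 and 1.97 in HGC, against 1.80, 1.56 and 1.85 in NGC. Dose label 1 overlapped, with 1.66, 1.69 and 1.96 in HG1 and 1.74, 1.89 and 1.70 in NG1. Dose labels 2 and 3 did not, with 2.13 and 1.98 in HG2 against 1.73, 1.65 and 1.80 in NG2, and 2.06 and 1.94 in HG3 against 1.74, 1.58 and 1.52 in NG3. The mean difference was 0.21 between the controls, 0.24 between treated libraries and -0.02 between treated and control libraries. Both sums hold a gene with shared windows, mt-Nd4 as the largest term of the complex I sum and mt-Co1, with 39.8% of its windows shared, in the other. Their part in this ratio was not tested.

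Gene by gene, high glucose against normal glucose over the 4 levels gave 1 higher and 1 lower member. Ndufa10, an accessory subunit of the membrane arm, rose, and Ndufaf1, an assembly factor of the part built around mt-Nd2, fell. In this comparison edgeR called 5.71% of the 13281 tested genes higher and 4.38% lower. The 2 members make up 3.77% of the 53, against 10.1% of all tested genes, and at an unadjusted p under 0.05 there were 9 members (22.7% of all genes). The other 51 did not pass.

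In high glucose Ndufa10 had 110.1 CPM in the lowest, 141 in the median and 179.8 in the highest library, against 104.9, 122 and 149.95 CPM in normal glucose. The media overlapped over all libraries. At dose label 2 it had 132 and 137 CPM in HG2, against 118, 126 and 107 CPM in NG2. At dose label 3 it had 148 and 145 CPM in HG3, against 104.9, 111 and 121 CPM in NG3. All HG2 and HG3 libraries thus lay above those of NG2 and NG3, whereas HG1 (153, 160.4 and 122 CPM) overlapped with NG1 (118, 123 and 125 CPM) and HGC (110.1, 179.8 and 131 CPM) with NGC (135, 140.02 and 149.95 CPM). The log2 fold change over the 4 levels was 0.25 ± 0.07 (SE; edgeR adjusted p = 0.0154), or 1.19-fold.

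In the treated libraries alone the log2 fold change of Ndufa10 was 0.33 ± 0.08 (SE; edgeR adjusted p = 0.00721), and for HGC against NGC it was -0.0011 ± 0.13 (edgeR adjusted p = 0.999). The difference between these effects did not pass the test itself, at 0.33 ± 0.15 (edgeR adjusted p = 0.554). The call over the 4 levels held in 31 of 31 alternatives. It was closest to the threshold without HGC replicate 2, the library with the highest value, at 0.19 (edgeR adjusted p = 0.0477). For HGC against NGC the estimate ran from -0.23 to 0.15 over the alternatives. None of the 75-base windows of Ndufa10 and of Ndufaf1 occurred in another transcript.

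Ndufaf1, a low-abundance gene with 24 to 116 counts per library, had 6.19, 8.33 and 13.3 CPM in the lowest, median and highest high-glucose library, against 8.08, 13.8 and 17.7 CPM in normal glucose. At dose label 3 it had 7.27 and 8.47 CPM in HG3, against 14.2, 14.8 and 17.7 CPM in NG3. At dose label 2 it had 12.4 and 8.17 CPM in HG2, against 14.9, 13.3 and 15.7 CPM in NG2. These pairs of groups did not overlap, while the controls and dose label 1 did. The log2 fold change was -0.50 ± 0.15 (SE; edgeR adjusted p = 0.0268), and it was below 0 at each of the 4 levels, at -0.35, -0.26, -0.48 and -0.91. The call held in 24 of 31 alternatives. It was lost without NGC replicate 1, NG1 replicate 2 or HG1 replicate 2 (edgeR adjusted p = 0.0532, 0.0570 and 0.0565). With all 24 files, or with the identical file kept in HG3, it was also lost (edgeR adjusted p = 0.0647 and 0.0627). The same held without HG2 replicate 2 or HG3 replicate 1, from groups with n = 2, where the log2 fold change was -0.43 and -0.47.

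The members nearest to the threshold were Ndufa4 at -0.25 ± 0.09 (SE; edgeR adjusted p = 0.0588) and Ndufaf8, a partner of Ndufaf5, at 0.21 ± 0.08 (edgeR adjusted p = 0.0987). They passed in 9 and 5 of 31 alternatives. Leaving out NGC replicate 3, NG2 replicate 1, NG3 replicate 1, HGC replicate 1, HG1 replicate 1 or HG1 replicate 2 brought Ndufa4 past the threshold, with edgeR adjusted p of 0.0463, 0.0333, 0.0485, 0.0176, 0.0336 and 0.0410. It also passed with the replicate number as a block, without the low-count filter and with all 24 files (edgeR adjusted p = 0.0381, 0.00444 and 0.0325). Leaving out NG3 replicate 3, HG1 replicate 1 or HG3 replicate 1 did so for Ndufaf8, with edgeR adjusted p of 0.0328, 0.0410 and 0.0460. Below them were Ndufv2 at -0.15 ± 0.06 and Ndufaf2, which holds the place of Ndufa12 during assembly, at -0.20 ± 0.09 (edgeR adjusted p = 0.129 and 0.142). Ndufc1 and Ndufa12 stood at 0.12 ± 0.06 each (edgeR adjusted p = 0.259 and 0.269).

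The 6 nuclear core subunits described here did not pass. The NADH-binding flavoprotein Ndufv1 stood at -0.13 ± 0.06 (SE; edgeR adjusted p = 0.211), next to its partner Ndufv2 given above. The iron-sulfur subunits Ndufs1, Ndufs7 and Ndufs8 stood at 0.06 ± 0.08, 0.04 ± 0.08 and 0.06 ± 0.08, and Ndufs3 at -0.02 ± 0.10. Their adjusted p ranged from 0.129 for Ndufv2 to 0.929 for Ndufs3 in edgeR.

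None of the 6 mitochondrial members passed, and 5 had a positive estimate. The proton-pumping subunit mt-Nd2 had 7000, 8213 and 9777 CPM in the lowest, median and highest high-glucose library, against 2539, 6797 and 10420.2 CPM in normal glucose. The high-glucose range lay inside the normal-glucose range, whose lowest value was NG3 replicate 3. Its log2 fold change was 0.33 ± 0.14 (SE; edgeR adjusted p = 0.157), and without NG3 replicate 3 it was 0.26 and passed (edgeR adjusted p = 0.0435). For mt-Nd6 it was 0.28 ± 0.12 (edgeR adjusted p = 0.164), with 635, 1017 and 1847 CPM in high against 664, 823 and 1203 CPM in normal glucose. The estimates of mt-Nd4, mt-Nd5 and mt-Nd1 were 0.17 ± 0.11, 0.10 ± 0.07 and 0.02 ± 0.05, and mt-Nd3 stood at -0.41 ± 0.34.

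The median log2 fold change was -0.00084 over the nuclear members and 0.13 over the mitochondrial ones, beside -0.01 over all tested genes. The 95% interval lay within 1.5-fold of no change in both directions for 48 of the 53 members, against 8771 of 13281 genes. These shares are not matched by level, since 25 nuclear and 5 mitochondrial members had at least 100 CPM, against 1925 of all tested genes. At each of the 4 levels, 4 members were higher and 5 lower in high glucose. The share over all genes was not counted, so nothing is read from these counts. Summed neuronal markers ran from 104 to 126 CPM in high and from 115 to 152 CPM in normal glucose, and summed fibroblast and pericyte markers from 4450.1 to 5599.5 and from 3310.1 to 5476 CPM. Their part in these results was not tested. In RNA of whole cultures, fewer cells of a type and less RNA per cell cannot be told apart.

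**Figure D4:**
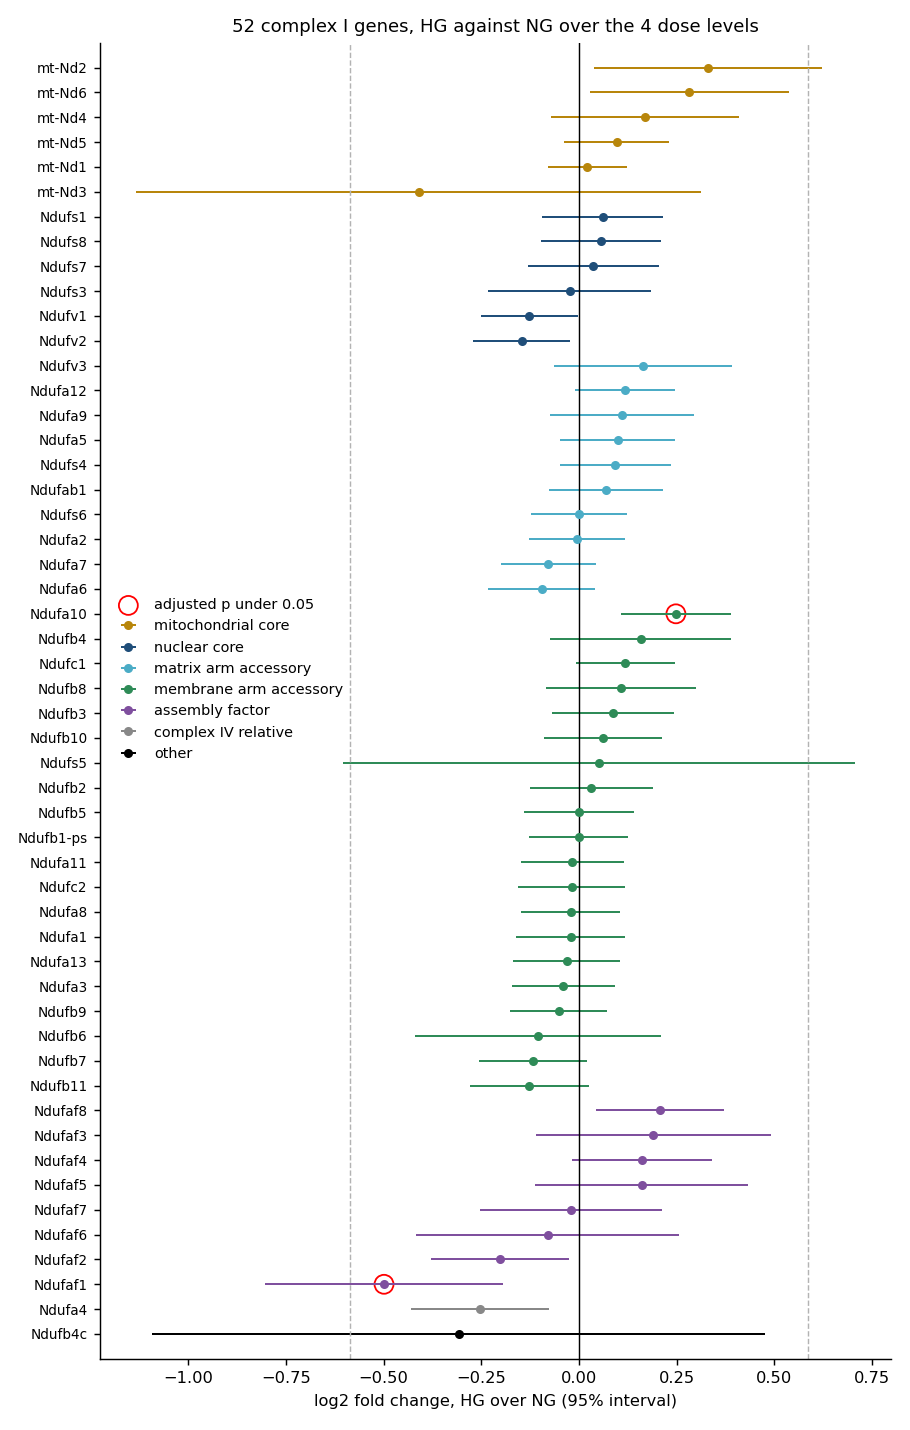
Log2 fold change of high over normal glucose over the 4 dose levels for 52 of the 53 genes, by role, with 95% intervals. Red circles mark Ndufa10 (0.25) and Ndufaf1 (-0.50), which passed the test, and dashed lines mark 1.5-fold.

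Between the controls alone, HGC against NGC, no member passed in edgeR, where 2.28% of genes passed (1.89% higher and 0.392% lower), nor in DESeq2 (375 of 11285 genes). At an unadjusted p under 0.05 there were 2 (11.9% of all genes), among them the assembly factor Ndufaf3 at 0.57 ± 0.28 (SE; edgeR adjusted p = 0.412). The median was 0.02 over the nuclear and -0.07 over the mitochondrial members, beside -0.01 over all genes. In the treated libraries, where 8.1% of genes passed (4.69% higher and 3.41% lower), Ndufa10 and Ndufaf1 were called. The treated libraries are also part of the comparison over the 4 levels, so these calls are not an independent repeat of it. The median there was -0.0045 over the nuclear and 0.24 over the mitochondrial members, beside -0.01 over all genes, and 14 members, 4 of them mitochondrial, had an unadjusted p under 0.05 (21.2% of all genes). The estimates were 0.40 ± 0.16 for mt-Nd2, 0.38 ± 0.14 for mt-Nd6, 0.30 ± 0.13 for mt-Nd4 and 0.17 ± 0.08 for mt-Nd5 (SE; edgeR adjusted p = 0.162, 0.119, 0.206 and 0.178). There Ndufaf1 stood at -0.55 ± 0.18 (SE; edgeR adjusted p = 0.0463) and passed in 7 of the 22 fits that left out 1 library, those without NGC replicate 1 or 2, NG1 replicate 3, HGC replicate 2 or 3, HG1 replicate 1 or HG2 replicate 1, over a range of edgeR adjusted p of 0.0179 to 0.186. Ndufa10 passed in 22 of 22.

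For mogroside V against control over both media no member passed in edgeR or DESeq2. The share of genes called was 0% in edgeR, with 630 of 13281 genes (4.74%) and 2 of 53 members at an unadjusted p under 0.05, and DESeq2 called 1 gene. The 2 members were Ndufs3 at 0.29 ± 0.12 and Ndufa10 at -0.16 ± 0.08 (SE; edgeR adjusted p = 0.994 for both). The medians were -0.0085 over the nuclear and 0.03 over the mitochondrial members, beside -0.0035 over all genes. The 95% interval lay within 1.5-fold in both directions for 49 of 53 members, against 9174 of 13281 genes, again not matched by level. Within single media edgeR called 0% of genes and no member, with 3 members at an unadjusted p under 0.05 in high glucose (5.11% of all genes) and 5 in normal glucose (8.43% of all genes). DESeq2 called no member in high and 1 in normal glucose, and its shares over all genes are not given for these. Over both media the core subunit mt-Nd1 stood at 0.06 ± 0.06, mt-Nd4 at -0.01 ± 0.13 and Ndufv1 at -0.12 ± 0.07.

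The effect of treatment was also compared between the media. In that interaction 0.00753% of genes passed in edgeR and no member, with 5 members at an unadjusted p under 0.05 (8.48% of all genes). DESeq2 called 1 member, and its share over all genes is not given. The 6 mitochondrial members were all positive in this term, with a median of 0.35 beside -0.0023 over all genes. Of these mt-Nd3, at 0.40, changed sign to -0.11 without HGC replicate 2 and stood at 1.51 without HGC replicate 1. None was called, and these messengers are cut from common precursor transcripts, so they are not independent points.

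**Figure D5:**
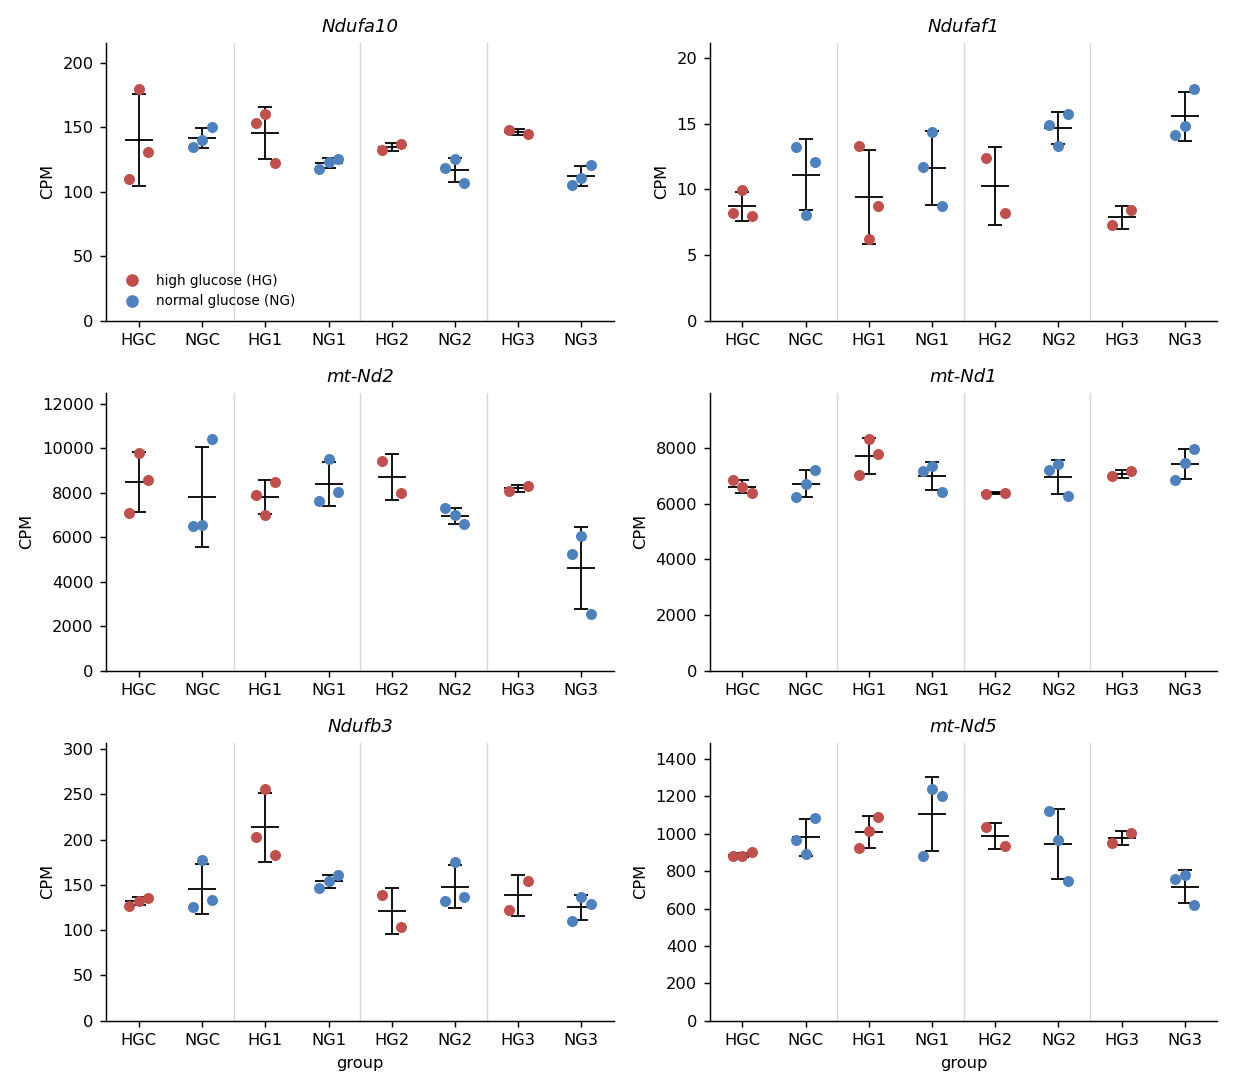
CPM of 6 members in each library (points) with the group mean and SD (bars), high glucose left of normal glucose at each level. Ndufa10 lies at 145 to 148 CPM in HG3 and 104.9 to 121 CPM in NG3, and mt-Nd2 has its lowest value, 2539 CPM, in NG3.

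Single dose labels against their control gave no called member in edgeR. The share of genes called was 0% at HG1, HG2, HG3 and NG1, 0.00753% at NG2 and 0.128% at NG3. At an unadjusted p under 0.05 there were 11, 2 and 0 members at HG1, HG2 and HG3, where 7.78%, 5.35% and 4.51% of all genes lay. There were 1, 5 and 7 members at NG1, NG2 and NG3, where 4.88%, 6.46% and 10.4% of all genes lay. DESeq2 called 3 at NG3 and 3 at HG1, but its shares over all genes are not given here, so these counts have no background beside them. These comparisons share their controls within a medium. The member with the lowest p at NG3 was mt-Nd5, a proton-pumping subunit, with 756, 778 and 619 CPM in NG3, against 964, 891 and 1085 CPM in NGC. The groups did not overlap, and the log2 fold change was -0.51 ± 0.13 (SE; edgeR adjusted p = 0.0705, DESeq2 adjusted p = 0.0115). Of the 22 fits that left out 1 library, mt-Nd5 passed in only 1, without NG3 replicate 2, at -0.60 (edgeR adjusted p = 0.0196). In the same comparison mt-Nd2 stood at -0.81 ± 0.26 (SE; edgeR adjusted p = 0.246, DESeq2 adjusted p = 0.0419). It had 5244, 6066 and 2539 CPM in NG3, the last in replicate 3, which stood apart from the other libraries, against 6503, 6559 and 10420 CPM in NGC.

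At HG1 the membrane arm subunit Ndufb3, named after its values were seen, had 202, 256 and 183 CPM, against 127, 132 and 136 CPM in HGC. The groups did not overlap, and the log2 fold change was 0.70 ± 0.14 (SE; edgeR adjusted p = 0.136, DESeq2 adjusted p = 0.0143). With the replicate number as a block it passed (edgeR adjusted p = 0.0461). Of the 22 fits that left out 1 library it passed in only 1, without HG1 replicate 3 (edgeR adjusted p = 0.0332).

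High against normal glucose at single dose labels gave no called member in edgeR. The share of genes called was 1.66% at label 1, 0.76% at label 2 and 0.919% at label 3, with 6, 4 and 6 members at an unadjusted p under 0.05 (12.9%, 10.5% and 12.2% of all genes). DESeq2 called 2, 0 and 1 members, again without its shares over all genes. At label 1 Ndufb3 had 202, 256 and 183 CPM in HG1, against 146, 155 and 161 CPM in NG1, with no overlap and a log2 fold change of 0.52 ± 0.14 (SE; edgeR adjusted p = 0.0518, DESeq2 adjusted p = 0.0418, and with the replicate block edgeR adjusted p = 0.0338). At label 3 mt-Nd5 had 949 and 1003 CPM in HG3, against 756, 778 and 619 CPM in NG3, again with no overlap, at 0.51 ± 0.14 (edgeR adjusted p = 0.0646, DESeq2 adjusted p = 0.0306). Ndufb3 passed in 12 of the 22 fits that left out 1 library, over a range of edgeR adjusted p of 0.0306 to 0.439, and failed without NGC replicate 3, any NG1 replicate, NG2 replicate 3, any HGC replicate, or HG1 replicate 1 or 2. mt-Nd5 passed in 4 of 22, those without NG1 replicate 1, NG2 replicate 1 or 3, or NG3 replicate 2, over a range of 0.0269 to 0.390 in edgeR adjusted p.

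Complex I is built and fed by genes outside the naming rule, and lists of these were described over the 4 levels of high against normal glucose. In that comparison 10.1% of all tested genes were called (5.71% higher and 4.38% lower), which is the share to set beside the counts of each list. Of 12 tested complex I factors with other names, 1 was higher and none lower, Tmem126b, which works with Ndufaf1 in the same assembly complex, at 0.44 ± 0.14 (SE; edgeR adjusted p = 0.0348). The median of the list was 0.13. No member of complex II (8 tested) or complex III (10 tested) passed. In complex IV 1 of 15 was lower, Cox6a2, the muscle form of a small subunit, at -3.60 ± 0.23 (edgeR adjusted p = 9.80e-14).

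In the ATP synthase 1 of 15 was lower, Atp5f1d, at -0.23 ± 0.06 (SE; edgeR adjusted p = 0.0164). Of 19 tested genes of mitochondrial DNA copying and expression 1 was higher, Lrpprc, which stabilises mitochondrial messengers, at 0.67 ± 0.13 (edgeR adjusted p = 0.0040). Of 8 regulators of mitochondrial biogenesis 1 was higher, the coactivator Ppargc1b, at 0.85 ± 0.28 (edgeR adjusted p = 0.0425), while its relative Ppargc1a stood at 0.52 ± 0.18 (edgeR adjusted p = 0.0583). The medians of these lists ran from -0.06 for mitochondrial DNA copying and expression to 0.13 for the complex I factors. The other mitochondrial messengers mt-Cytb and mt-Co1 stood at -0.07 ± 0.06 and 0.01 ± 0.06 (edgeR adjusted p = 0.526 and 0.950). For treated against control libraries over both media, where 0% of all tested genes were called, none of these lists had a called gene.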

How the data were processed

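Polyadenylated RNA of 24 samples of a mouse hypothalamic cell line was sequenced with the VAHTS Universal V8 kit after PureLink extraction with DNase, per the labels' protocols. Each library has 1 deposited file of raw read counts per gene ID. According to the submitters' processing notes, HTSeq 1.99.2, STAR 2.7.5c, FastQC 0.11.9 and DESeq2 3.16 were used with the build GRCm39. Strand setting and annotation release are not given in the sources used here. Whether reads of a gene and of its antisense partner were kept apart is therefore not known, and 10 members share windows with an antisense transcript. The 5 summary lines of each file stayed out of library sizes, and they hold 14.4 to 20.6% (no gene) and 3.46 to 4.15% (ambiguous) of reads. Symbols were found for 51948 of 56941 IDs.

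CPM values are gene counts divided by the library's gene total and scaled to a common total. edgeR 4.0.16 in R 4.3.3 (TMM factors, default low-count filter, robust quasi-likelihood F tests, 8 group means, 14 residual degrees of freedom, biological coefficient of variation 0.149) was fitted to 13281 genes, with Benjamini-Hochberg adjustment over all of them in each of 16 comparisons and a threshold of 0.05. Intervals are 95%. Levels per kilobase use the transcript with the longest coding part in GENCODE, and shared sequence was searched there in windows of 75 bases, and of 50 and 100 as checks. Since that annotation is GRCm38, no gene coordinates are printed other than those of RefSeq promoters. Python 3.11 scripts made tables and figures. The fit was tested on simulated counts.

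The members and lists were chosen with earlier results of these data known. Named were all mitochondrial members, the nuclear core subunits, every called member, the 4 nuclear members with the lowest p in each direction and the members around the 1 CPM limit, and of other lists up to 3 genes. The values of 1 member are not reported here. Alternatives were DESeq2 1.42.0, RLE in place of TMM factors, low-count genes kept, a fit of the compared groups alone and a replicate block. Further alternatives left out each library, kept the identical file, or left mitochondrial genes out of library sizes. Another left out NG3 replicate 3, which stood apart, together with HGC replicate 2. Sums without mt-Nd3 and mt-Nd4 were added after the data were seen.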

Additional observations from a re-analysis of the deposited data

How the results depend on the processing

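The number of members was 53 over 22, 23 and 24 files, and 51 at 5 CPM. The difference of the log2 ratio of the mitochondrial over the nuclear sum moved by less than 1 within-group SD (0.16) in all 66 leave-one-out values and 21 other values. That limit is about as wide as the difference of 0.17 itself and was hard to exceed, so it does not show stability. Between high and normal glucose the difference ran from 0.13 to 0.21 with 1 library left out. Between the controls it ran from -0.18 to -0.00088, and its sign changed without mt-Nd3 and mt-Nd4. No direction of a named member that passed was reversed. Members called in high against normal glucose over the 4 levels were 2, with 1 when the identical file was kept in HG3 and 1 to 4 with 1 library left out (1 without NGC replicate 1, NG1 replicate 2 or HG2 replicate 2, 4 without NG3 replicate 3 or HG1 replicate 1). In the treated libraries they were 2, with 1 without the filter, 1 with only the groups compared, 5 with all 24 files, 4 without NG3 replicate 3 and HGC replicate 2 together, and 1 to 3 with 1 library left out (3 without NG3 replicate 2 or 3, HG1 replicate 1 or HG3 replicate 1). DESeq2 called 1 where edgeR called 0 for treatment in normal glucose and for the interaction. Over all genes, high against normal glucose over the 4 levels gave 1472 of 13332 with the identical file in HG3 and 1597 of 13234 without NG3 replicate 3. For the treated libraries, treatment in normal glucose and the interaction, the alternatives' shares over all genes are not given.

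At NG3 against NGC, 0 members became 3 with DESeq2, 2 without the filter, 1 with all 24 files and 0 to 1 with 1 library left out. At HG1 against HGC, 0 became 3 with DESeq2, 2 without the filter, 1 with only the groups compared and 0 to 1 with 1 left out. At HG1 against NG1, 0 became 2 with DESeq2, 2 without the filter, 3 with only the groups compared, 2 with all 24 files, 2 with the identical file in HG2 or in HG3, 1 without NG3 replicate 3 and HGC replicate 2 together, and 0 to 2 with 1 left out. At HG2 against NG2, 0 became 2 with only the groups compared. At HG3 against NG3, 0 became 1 with DESeq2, 1 without the filter, 2 with all 24 files, 1 and 2 with the identical file in HG2 and in HG3, 1 without the 2 libraries together, and 0 to 1 with 1 left out. The cause was not tested. The alternatives' shares over all genes are not given for these single-dose comparisons, so these counts have no background beside them.

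The replicate block called 1 member, Ndufb3, in each of HG1 against HGC and HG1 against NG1, and 3 in place of 2 in high against normal glucose over the 4 levels, where Ndufa4 was added. It called 1365 genes against 1340 without it in that comparison, and changed no other count of members. Replicates of the same number did not deviate together, with a median r of 0.01 over 70 pairs, 1 pair above 0.1, and 7 of 22 libraries correlating best with their own number. Counts per library were 24 to 116 in Ndufaf1, 13 to 358 in mt-Nd3 and 1 to 22 in Ndufb4c and Ndufs5, which limits the precision of their values. A fit of only the groups compared was not run where all 8 groups were in the comparison.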
